A study of Homo sapiens with 14 samples.

Results

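KLF4 ChIP-seq intervals that lie inside exons of protein-coding genes, more than 2 kb from the start of any gene, were examined in BEAS-2B cells, an immortalised human bronchial epithelial cell line. Of 29866 intervals on chromosomes 1 to 22 and X in wild-type (WT) cells treated with 1 µM As3+ for 6 h, 1794 met this rule. In untreated Nrf2 knockout (KO) cells it was met by 5997 of 76521 intervals, so the set held 7791 of 106387 intervals in all. The rule used only the position of the summit, the base with the highest signal in an interval, and the GENCODE gene annotation. It did not use the strength of an interval. The Nrf2 KO cells were made with CRISPR guides against exon 2 of the gene for Nrf2 and were kept as colonies that lacked the protein. In the paper, colonies of the same procedure that kept Nrf2 served as WT, and both derive from BEAS-2B cells. Other differences between the colonies were not examined. Untreated WT cells and As3+-treated Nrf2 KO cells were also profiled. Their lists were short, with 751 and 130 intervals, and held 22 and 4 exonic sites. With 1 library per condition there is no replicate against which to judge a difference, and p-values are therefore absent. Intervals around shares are exact 95% binomial intervals (Clopper-Pearson) and those around densities are exact 95% Poisson intervals. Both cover counting error only.

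KLF4 is a zinc finger transcription factor that binds CACCC-type and GC-rich DNA, and is known for its part in epithelial differentiation and in the reprogramming of cells to pluripotency. Its sites are usually described at promoters and at enhancers in introns or between genes. An exon can also hold regulatory DNA. The first exon of one transcript often lies inside another, longer gene, and coding sequence can carry binding sites for transcription factors while it encodes protein. Exons of different kinds differ in base composition. Coding exons and 5′ UTRs are on average richer in G and C than 3′ UTRs, and GC content affects both binding by factors of the KLF family and the recovery of DNA fragments in sequencing libraries.

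The sequences below show the KLF word at strong coding exon and 3′ UTR sites, 2 for each class and list, so that a reader can see the letters on which the counts of words rest. The word is CCACACCC or CCACGCCC on either strand, and was searched within 100 bp of the summit. Each line gives 24 bases of hg38, 5′ to 3′ on the strand that carries the word, with the word in capitals. The first 4 come from the WT As3+ list and the others from the Nrf2 KO control list.
TMPRSS5 coding exon 10, chr11:113690845-113690868, minus strand: ggctggggCCACACCCaccctagc
ETV4 coding exon 2, chr17:43545523-43545546, minus strand: gccggcctCCACGCCCgccccgcc
DNAJB2 3′ UTR, exon 9, chr2:219286547-219286570, minus strand: ttctggggCCACACCCtgctcagg
PTPRN 3′ UTR, exon 23, chr2:219289821-219289844, minus strand: gagggtcgCCACACCCggctcccc
CARMIL2 coding exon 15, chr16:67648513-67648536, plus strand: gaccccggCCACGCCCccgcgggc
C1orf35 coding exon 3, chr1:228102591-228102614, plus strand: agtcggccCCACACCCacggccct
ATP6V1FNB 3′ UTR, exon 2, chr7:128869128-128869151, plus strand: tgccaccgCCACACCCctccttgc
CCDC97 3′ UTR, exon 5, chr19:41323881-41323904, plus strand: ccatgcccCCACACCCggctcctg

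The word lay 3 bp from the summit at TMPRSS5, a gene for a transmembrane serine protease, and 93 bp from it at ATP6V1FNB. In DNAJB2, which encodes a co-chaperone of the HSP40 family, the word was 48 bp from the summit and ran against the direction of the gene. All 8 of these sites were overlapped by an interval of the other long list. ETV4 is a gene for an ETS family factor and CARMIL2 a gene for a regulator of actin filaments. Their summits lay 113 and 43 bp respectively from an annotated transcript start.

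The lists differ in what stands behind an interval. From the fold enrichment and p-value of an interval, the fragments at its summit and the background level there can be worked out. The median number of fragments at the exonic sites was 10 in the WT As3+ list and 7 in the Nrf2 KO control list, against 27 and 28.5 in the short lists of WT control and Nrf2 KO As3+. The lowest background was also lower in the long lists, at 0.757 and 0.491 fragments, than in the short ones, at 1.90 and 1.64. The long lists thus come from libraries with a lower background and hold sites that rest on fewer fragments. All 4 lists stop at a −log10 q of about 1, between 1.00 and 1.03, and a site missing from a list can lie below that limit. Whether the length of a list follows the treatment, the genotype or the depth of the library cannot be told apart with 1 library each.

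Exonic sites made up 6.01% (5.74 to 6.28) of the WT As3+ intervals and 7.84% (7.65 to 8.03) of the Nrf2 KO control intervals. They were neither the strongest nor the weakest part of their lists. A −log10 q of at least 5 was reached by 31.9% of all WT As3+ intervals and by 26.1% (24.1 to 28.2) of the exonic ones. The same threshold was reached by 21.1% of all Nrf2 KO control intervals and by 18.4% (17.5 to 19.4) of the exonic sites. Intervals within 2 kb of a gene start were stronger in both lists, with 41.2% and 34.4% past the threshold. Intronic intervals farther from a gene start reached it in 23.5% and 13.6% of cases. Median fold enrichment at the exonic sites was 4.62 in WT As3+ cells, with values from 2.71 to 19.2, and 4.68 in Nrf2 KO control cells, with values from 2.78 to 14.4.

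The limit of 2 kb cut through a falling density. From 1 to 2 kb from a gene start, just outside the set, exons held 84.8 (78.1 to 92) WT As3+ summits per Mb, and from 2 to 3 kb, just inside it, they held 39.4 (34.5 to 44.8). The corresponding values in Nrf2 KO control cells were 190.4 (180.2 to 201) and 119 (111 to 128) per Mb. Median fold enrichment on the outer and inner side of the limit was 4.76 and 4.55 in WT As3+ cells, and 4.80 and 4.64 in Nrf2 KO control cells.

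Distance from a gene start did not mean distance from every annotated start. GENCODE gives most genes several transcripts, and 48.8% (46.5 to 51.2) of the WT As3+ exonic sites lay within 500 bp of the start of some annotated transcript. The share was 33.1% (31.9 to 34.3) in Nrf2 KO control cells, and 17.9% of the eligible exon, meaning all exonic bases more than 2 kb from a gene start, lay that close. Within 2 kb of a transcript start were 64.7% and 53.6% of the sites and 34.4% of the eligible exon. Density fell with distance from the nearest transcript start. WT As3+ sites went from 55.1 (51.6 to 58.9) per Mb within 500 bp to 8.29 (7.39 to 9.27) per Mb beyond 5000 bp. Nrf2 KO control sites went from 125 (119 to 130.4) to 36.8 (34.8 to 38.8) per Mb. The GC content of the sequence moved with this distance, from a median of 48.5% in eligible exon within 500 bp to 41.5% beyond 5000 bp, and its part in the fall of density was not tested. The name of promoter-distal exonic sites therefore holds only with respect to gene starts, and 633 WT As3+ and 2783 Nrf2 KO control sites remained when every transcript start was kept more than 2000 bp away.

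**Figure D1:**
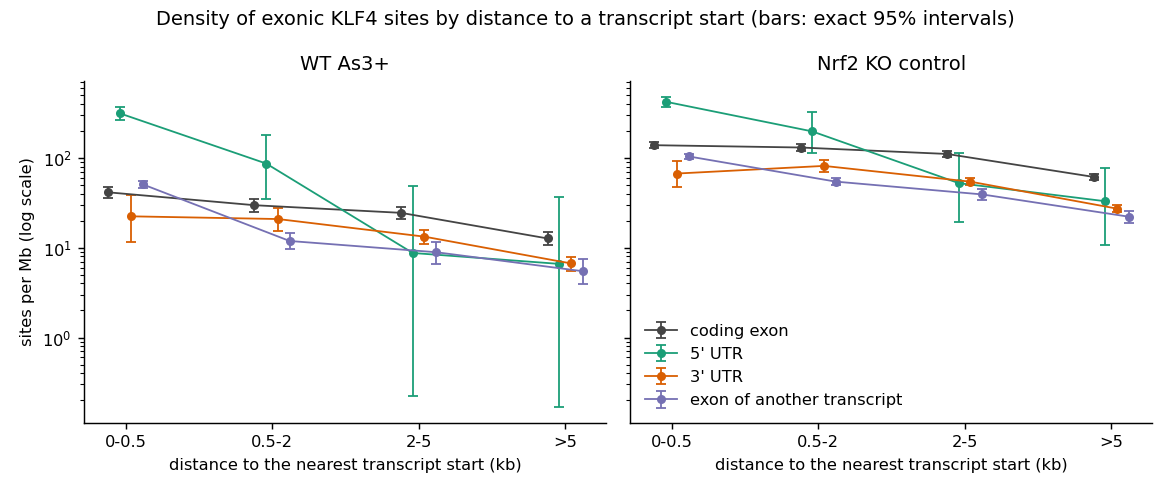
Density of exonic KLF4 sites per Mb of eligible exon (log scale) against distance to the nearest annotated transcript start in kb, for 4 exon classes in the WT As3+ and the Nrf2 KO control list; bars are exact 95% Poisson intervals. In both lists the 5′ UTR points are highest next to a transcript start, at 315 and 424 per Mb, and all 4 classes have their lowest values beyond 5 kb.

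Each site was assigned to a coding exon, a 5′ UTR or a 3′ UTR of the canonical transcript of its gene, or to an exon that only another transcript uses. Coding exons held 660 of the 1794 WT As3+ sites, which is 36.8% (34.6 to 39.1), and 2754 of the 5997 Nrf2 KO control sites, which is 45.9% (44.7 to 47.2). They make up 31.2% of the eligible exon. 3′ UTRs make up 33.6% of it and held fewer sites than that in both lists, with 299 sites or 16.7% (15.0 to 18.5) in WT As3+ cells and 1200 sites or 20% (19 to 21.0) in Nrf2 KO control cells. 5′ UTRs are 0.967% of the eligible exon. They held 170 sites or 9.48% (8.16 to 10.9) in WT As3+ cells and 244 sites or 4.07% (3.58 to 4.60) in Nrf2 KO control cells. The remaining 665 and 1799 sites lay in exons of other transcripts.

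Per Mb, 5′ UTRs carried 198 (169 to 230.2) WT As3+ sites, coding exons 23.8 (22.1 to 25.7) and 3′ UTRs 10 (8.93 to 11.2). The order was the same in Nrf2 KO control cells, with 284 (249.8 to 322), 99.5 (95.8 to 103) and 40.3 (38.0 to 42.6) sites per Mb. Both lists shared the order of the classes, while their numbers also follow the lengths of the lists.

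**Figure D2:**
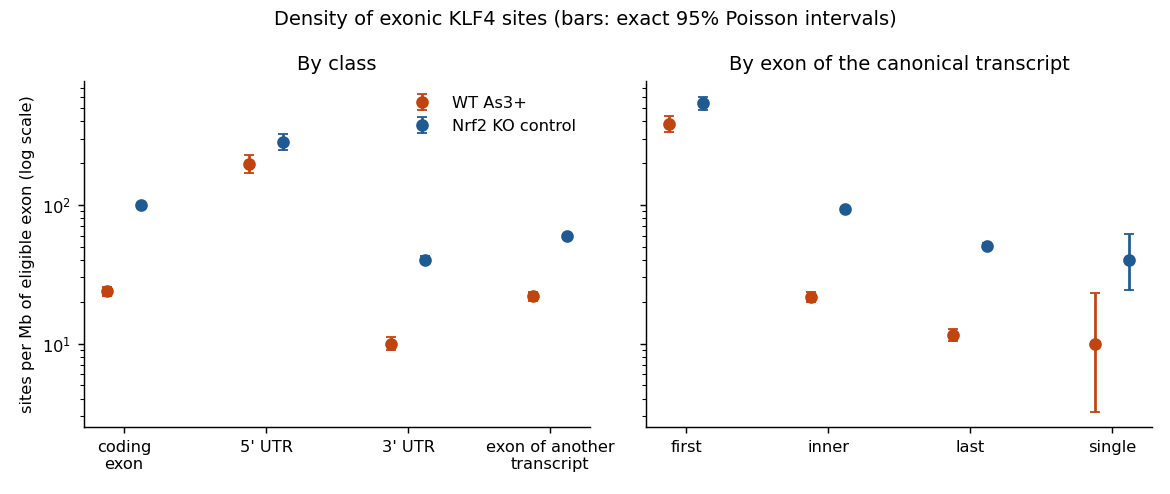
Density of exonic KLF4 sites per Mb of eligible exon (log scale) by exon class on the left and by position of the exon in the canonical transcript on the right, for WT As3+ and Nrf2 KO control; bars are exact 95% Poisson intervals. 5′ UTRs and first exons stand above the other groups in both lists, with first exons at 385 and 539 sites per Mb and last exons at 11.5 and 50.3.

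First, inner and last exons of the canonical transcript were compared over the 1129 WT As3+ and 4198 Nrf2 KO control sites that lay in such an exon. First exons are 1.04% of these bases, because most of their length is within 2 kb of a gene start. They held 20.7% (18.4 to 23.2) of the WT As3+ sites and 7.81% (7.02 to 8.67) of the Nrf2 KO control sites. Inner exons, with 38.9% of the bases, held 43.6% (40.7 to 46.5) and 50.4% (48.8 to 51.9). Last exons, with 59.2% of the bases, held 35.3% (32.5 to 38.1) and 41.4% (39.9 to 42.9). Genes with a single exon contributed 5 and 20 sites.

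The first exons and the 5′ UTRs were largely the same sites. Of the 170 WT As3+ sites in 5′ UTRs, 161 lay in the first exon of the canonical transcript, and 94.7% (90.2 to 97.6) were within 500 bp of a transcript start. In Nrf2 KO control cells 201 of 244 lay in a first exon and 88.9% (84.3 to 92.6) within 500 bp of a start. These are starts of canonical transcripts that begin far downstream of the annotated 5′ end of the gene. 5′ UTR sequence in inner exons had a density of 20.3 (9.26 to 38.5) per Mb in WT As3+ cells, on 9 sites, close to the 21.8 (19.9 to 23.8) of coding sequence in inner exons. The same pair was 85.5 (60.5 to 117), on 38 sites, and 93.2 (89.2 to 97.3) in Nrf2 KO control cells. In coding sequence, too, first exons stood out, with 272 (214 to 342) WT As3+ sites per Mb in first exons and 20.3 (16.6 to 24.6) in last exons, and 474 (395 to 564) and 107 (98.6 to 117) for Nrf2 KO control. Over all sequence, inner coding exons had 1.07 (0.867 to 1.34) and 0.869 (0.790 to 0.956) times the density of last ones. Median GC of the eligible sequence was 48.0% in inner and 50.5% in last coding exons. Above 50% GC the Nrf2 KO control ratio was no longer below 1. It was 1.06 between 50% and 60%, 1.05 (0.936 to 1.18) between 60% and 70% and 1.19 (0.953 to 1.49) above 70%. These intervals include 1, as does that of 0.655 (0.219 to 2.35) between 40% and 50%. WT As3+ ratios were 1.23 (0.941 to 1.62) between 60% and 70% and 1.63 (1.10 to 2.49) above 70%.

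Inner coding exons are short beside an interval. The exon around a site had a median length of 173 bp in WT As3+ cells and 174 bp in Nrf2 KO control cells, against 162 bp for all eligible positions in inner coding exons. The interval ran past both ends of its exon at 42.7% (38.2 to 47.2) and 45.9% (43.8 to 48.1) of these sites. For such a site, coding position refers to the summit, and the flanking introns belong to the interval as well. Summits did not gather at splice junctions. The share within 25 bp of an exon end was 28.4% (24.4 to 32.6) and 29.1% (27.2 to 31.1), and 32.1% of the eligible positions were that close. In 3′ UTRs the exon length was the other way round. It had a median of 2429 and 2476 bp at the sites and 3802 bp over the eligible positions. Sites also lay toward the stop codon, as 41.1% (35.5 to 46.9) of the WT As3+ and 40.7% (37.9 to 43.5) of the Nrf2 KO control sites were in the third next to the stop codon, against 33.6% of the eligible positions. The third at the other end held 27.8% (22.8 to 33.2) and 25.6% (23.1 to 28.2). Median GC of eligible 3′ UTR was 41.0% in the third next to the stop codon and 39.0% in the third at the other end.

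GC content set the sites apart from other exonic sequence in every class. Over 200 bp around the summit, median GC was 65.5% in WT As3+ cells and 64.0% in Nrf2 KO control cells, against 44% over all eligible exon. The quartiles of the sites were 61.5% and 70% in the first list and 60% and 67.5% in the second. Coding exon sites had medians of 65.5% and 64.5%, where eligible coding exon had 49.0%. 3′ UTR sites had medians of 62.5% and 61.5%, where eligible 3′ UTR had 40.5%. 5′ UTR sites were richest, with 71.5% and 70.2%, against 51.0%. Quartiles of the sites in each class stood above the median of the eligible sequence.

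**Figure D3:**
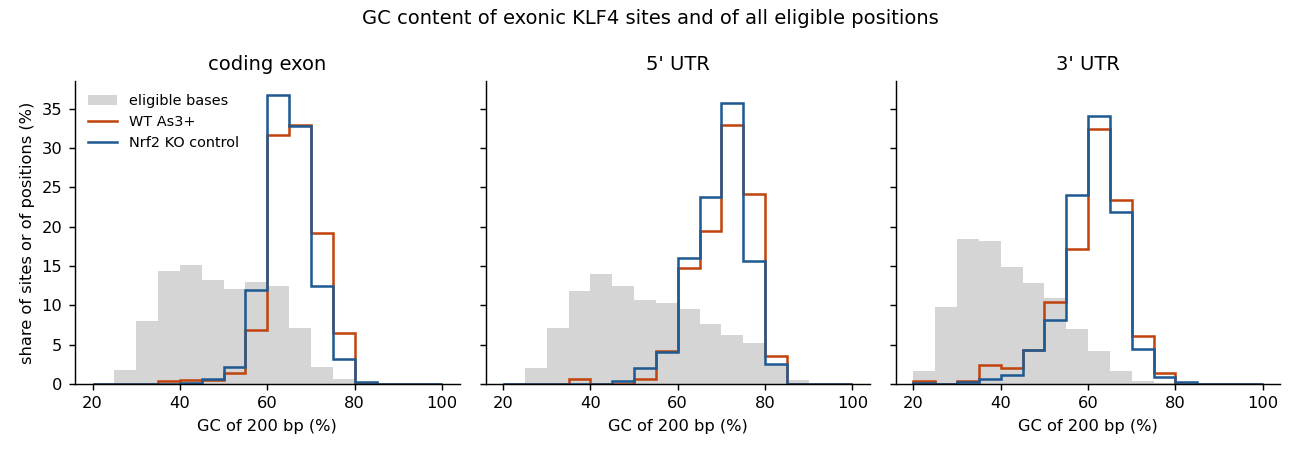
Distribution of GC content over 200 bp (in bins of 5 points) for KLF4 sites of the WT As3+ list, sites of the Nrf2 KO control list and all eligible positions, in coding exons, 5′ UTRs and 3′ UTRs; the vertical axis is the share of sites or positions in percent. In every class the sites lie to the right of the eligible positions, with medians of 61.5% to 71.5% against 40.5% to 51.0%.

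Density rose with GC over the whole range. Exonic sites of WT As3+ cells went from 0.432 (0.236 to 0.724) per Mb where GC was below 40% to 12.7 (11.2 to 14.4) between 50% and 60%, 104 (98.2 to 111) between 60% and 70% and 340.2 (309.7 to 373) above 70%. Nrf2 KO control sites went from 0.648 (0.401 to 0.990) through 61.8 (58.3 to 65.4) and 381 (369 to 393) to 662 (619 to 707).

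Within a band of GC, coding exons no longer exceeded 3′ UTRs. Over all eligible sequence the density of sites in coding exons was 2.38 (2.07 to 2.73) times that in 3′ UTRs in WT As3+ cells and 2.47 (2.31 to 2.65) times in Nrf2 KO control cells. Between 60% and 70% GC the ratio was 0.820 (0.684 to 0.986) and 0.913 (0.835 to 0.998). Between 50% and 60% it was 0.508 (0.353 to 0.725) and 0.777 (0.673 to 0.897). Above 70% it was 1.04 (0.664 to 1.70) and 0.867 (0.669 to 1.14), and both of these intervals include 1. An excess of coding exon over 3′ UTR whose interval lay above 1 was found over all sequence together, and in no single band. Keeping more than 2 kb from every transcript start gave 1.91 (1.61 to 2.27) and 2.19 (2.02 to 2.38) over all sequence, and 0.782 (0.622 to 0.987) and 0.886 (0.796 to 0.988) between 60% and 70% GC.

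5′ UTRs stayed above both other classes at equal GC in WT As3+ cells. Between 60% and 70% GC their density was 5.02 (3.75 to 6.61) times that of coding exons, and above 70% it was 3.95 (3.06 to 5.07) times. The excess was smaller in Nrf2 KO control cells, at 1.87 (1.51 to 2.30) and 1.97 (1.61 to 2.40) times in the same bands, and the intervals of the 2 lists do not overlap in either band. The lists differ in length, and among the 10000 strongest intervals of each the share of exonic sites in 5′ UTRs was 14.0% and 13.1%, in place of 9.48% and 4.07%. From the GC content of their sequence alone, with the rate of the list in bins of 5 points, 60.9 WT As3+ sites were expected in 5′ UTRs and 170 were found, a ratio of 2.79 (2.39 to 3.24). In Nrf2 KO control cells 145 were expected and 244 found, a ratio of 1.68 (1.47 to 1.90). The rate was that of all exonic sites of the list, so an excess in some classes lowers the ratios of the others. On this relative scale coding exons were at 0.678 (0.627 to 0.732) and 0.870 (0.838 to 0.904). 3′ UTRs were at 1.01 (0.902 to 1.14) and 1.12 (1.05 to 1.18). Exons of other transcripts were at 1.43 (1.32 to 1.54) and 1.12 (1.06 to 1.17).

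**Figure D4:**
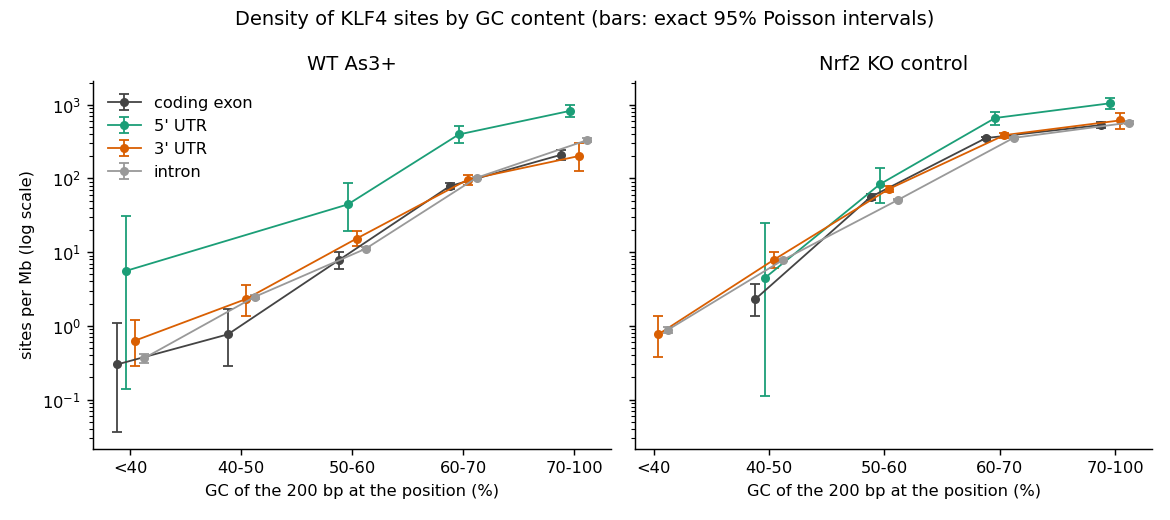
Density of KLF4 sites per Mb (log scale) against GC content of 200 bp in 5 bands, for coding exons, 5′ UTRs, 3′ UTRs and introns of protein-coding genes, all more than 2 kb from a gene start; bars are exact 95% Poisson intervals and classes with 0 sites in a band have no point. All lines rise with GC; between 40% and 50% GC coding exons lie below introns, at 0.310 and 0.294 times their density, and above 60% 5′ UTRs lie above the other classes, with 824 and 1048 sites per Mb above 70% GC.

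Exons were set beside introns of protein-coding genes that also lay more than 2 kb from gene starts. These introns held 6606 WT As3+ and 23443 Nrf2 KO control intervals. Distance beyond that limit and distance from transcript starts were not matched. Exonic density was 3.40 (3.23 to 3.58) times the intronic one in WT As3+ cells and 3.20 (3.11 to 3.30) times in Nrf2 KO control cells. Between 40% and 50% GC these ratios were 0.739 (0.539 to 0.991) and 0.675 (0.564 to 0.802). Between 50% and 60% they were 1.14 (0.997 to 1.31) and 1.20 (1.13 to 1.28). Above 70% they were 1.02 (0.910 to 1.15) and 1.16 (1.06 to 1.26). Between 60% and 70% GC they were 1.02 (0.952 to 1.10) and 1.07 (1.03 to 1.11). Coding exons taken alone had 0.772 (0.695 to 0.855) and 0.993 (0.945 to 1.04) times the density of introns in that band, and 3′ UTRs 0.941 (0.800 to 1.10) and 1.09 (1.00 to 1.18) times. In that band WT As3+ coding exons thus held fewer sites than introns, while the other 3 ratios lay between 0.941 and 1.09. WT As3+ coding exons were also below introns between 50% and 60% GC, at 0.702 (0.525 to 0.919), and above 70%, at 0.628 (0.529 to 0.743). 3′ UTRs did not stay near introns in every band. Between 50% and 60% their ratio was 1.38 (1.09 to 1.72) in WT As3+ cells. In Nrf2 KO control cells its interval was 1.26 to 1.55. Above 70% the ratios were 0.605 (0.377 to 0.923) and 1.07 (0.825 to 1.37).

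Many sites had the composition of a CpG island. A GC content of at least 50% with an observed to expected ratio of CpG of at least 0.6 was found at 42.5% (40.2 to 44.9) of WT As3+ sites and 27.5% (26.3 to 28.6) of Nrf2 KO control sites, and at 4.48% of eligible positions. It was most frequent in 5′ UTRs, at 82.9% (76.4 to 88.3) and 74.2% (68.2 to 79.6) of sites. In 3′ UTRs it was met by 11.7% (8.29 to 15.9) and 12.6% (10.8 to 14.6), against 1.65% of eligible positions. WT As3+ coding exon sites met it more often than Nrf2 KO control coding exon sites, at 45.0% (41.2 to 48.9) and 31.2% (29.4 to 32.9).

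Sites in exons of other transcripts lay mostly in first exons in both lists. Of the 665 sites in that class, 67.4% (63.7 to 70.9) lay in the first exon of some transcript, and of the 1799 Nrf2 KO control sites 55.3% (52.9 to 57.6) did, against 37.2% of the eligible positions of the class. An intron of the canonical transcript surrounded 78.5% (75.2 to 81.6) and 87.0% (85.4 to 88.6) of these sites. Of the eligible positions of the class, 89.7% lay in such an intron, so the sites did so no more often. The highest fold enrichments of the whole set, 19.2 and 14.4, belong to this class.

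The KLF word was found within 100 bp on either side of the summit at 8.92% (7.64 to 10.3) of WT As3+ sites and 6.87% (6.24 to 7.54) of Nrf2 KO control sites. Windows of the same 200 bp along all eligible exon held it in 2.80% of cases. The remainder of each list, outside these exons, held it at 10.4% (10.1 to 10.8) and 9.48% (9.26 to 9.70) of intervals. By class, WT As3+ sites held it at 6.82% (5.02 to 9.02) in coding exons, 8.82% (5.02 to 14.1) in 5′ UTRs and 9.36% (6.31 to 13.2) in 3′ UTRs. Nrf2 KO control sites held it at 5.45% (4.63 to 6.36), 4.92% (2.57 to 8.43) and 9.17% (7.59 to 10.9). The word is itself rich in C, and at equal GC the excess was smaller in the bands above 50%. Between 60% and 70% GC, 8.44% (6.81 to 10.3) of WT As3+ sites and 6.33% (5.58 to 7.16) of Nrf2 KO control sites held it, and 6.02% of eligible windows. Above 70% the shares were 8.55% (6.15 to 11.5) and 8.68% (6.91 to 10.7), and 7.82% in eligible windows. Between 50% and 60% GC they were 10.2% (6.69 to 14.6) and 7.36% (5.94 to 8.99), against 5.76%. Between 40% and 50% GC the excess was not smaller, on few sites. The shares there were 17.0% (7.65 to 30.8), or 8 of 47, and 6.62% (3.07 to 12.2), or 9 of 136, against 2.13%. Most sites carried no KLF word in this window, which says only that these letters were not there.

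The other words searched, on both strands, were TGACTCA for AP-1, CCCCGCCCC for the GC box, CGCGCG for a run of CG and TGACNNNGC for the core of the antioxidant response element bound by Nrf2. A TGACTCA followed by GC counts as both the first and the last of these, and a GC box can share bases with CCACGCCC. The AP-1 word was found at 3.68% (2.86 to 4.66) of WT As3+ sites and at 2.17% (1.81 to 2.57) of Nrf2 KO control sites, against 2.84% of eligible windows. Between 60% and 70% GC the shares were 4.75% (3.54 to 6.23), 2.13% (1.69 to 2.64) and 1.90%, so that in this band the word was more frequent at WT As3+ sites than in the other list or in the windows. Between 50% and 60% GC it was not, with 2.44% (0.900 to 5.23), 2.68% (1.84 to 3.76) and 3.05%. Above 70% GC both lists had similar shares, above that of the windows, with 1.75% (0.760 to 3.43), 1.47% (0.783 to 2.49) and 0.742%. In coding exons the AP-1 word was found at 1.67% of sites in each list, against 2.53% of windows. In 3′ UTRs it was found at 5.02% (2.83 to 8.14) of WT As3+ and 2.17% (1.42 to 3.16) of Nrf2 KO control sites. Eligible 3′ UTR windows held it in 2.84% of cases, a value inside both intervals. The GC box was found at 5.52% (4.51 to 6.68) and 3.13% (2.71 to 3.61) of sites against 0.594% of windows. The shares were 3.98% (2.87 to 5.36) and 2.21% (1.76 to 2.73) against 2.32% between 60% and 70% GC, and above 70% GC they were 12.5% (9.61 to 15.9) and 10.4% (8.44 to 12.6) against 10.1%. The run of CG had shares of 8.58% (7.33 to 9.98) and 4.74% (4.21 to 5.30) against 0.528% of windows, and of 27.1% (20.5 to 34.4) and 20.1% (15.2 to 25.7) in 5′ UTRs, where eligible windows had 6.33%. Above 60% GC the gap at equal composition was smaller. The shares were 4.56% (3.37 to 6.02) and 2.53% (2.05 to 3.08) against 1.55% between 60% and 70% GC. Above 70% they were 22.1% (18.4 to 26.2) and 18.9% (16.4 to 21.7) against 17.6%. The core of the antioxidant response element was found at 9.98% (8.63 to 11.5) and 10.6% (9.79 to 11.4) of sites and 6.83% of windows. Between 60% and 70% GC its shares of 10.3% (8.49 to 12.3) and 11.2% (10.2 to 12.2) lay around the 11.5% of the windows.

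The lists were compared site by site, where an overlap of 1 bp counted as shared. Of the WT As3+ exonic sites, 52.8% (50.5 to 55.2) were overlapped by a Nrf2 KO control interval, against 55.6% of all WT As3+ intervals. Of the Nrf2 KO control exonic sites, 15.3% (14.4 to 16.3) were overlapped by a WT As3+ interval, against 21.7% of all Nrf2 KO control intervals. The exonic sites were therefore shared no more often than their lists as a whole. With summits required within 100 bp of each other, the shares of exonic sites were 19.3% and 5.69%. By class, the WT As3+ sites in 5′ UTRs were shared in 84.1% (77.7 to 89.3) of cases, those in coding exons in 45.6% (41.8 to 49.5) and those in 3′ UTRs in 37.8% (32.3 to 43.6). Intronic WT As3+ intervals were shared in 37.4% (36.2 to 38.6). In the opposite direction the shares were 54.9% (48.4 to 61.3) in 5′ UTRs, 10.3% (9.17 to 11.5) in coding exons, 10.4% (8.75 to 12.3) in 3′ UTRs and 10.8% (10.4 to 11.2) in introns.

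Sharing rose with GC content and with nearness to a transcript start. It went from 22.8% (17.7 to 28.5) of WT As3+ sites between 50% and 60% GC to 79.2% (75.1 to 82.8) above 70%, and from 30.0% (24.9 to 35.4) of sites more than 5000 bp from a transcript start to 66.4% (63.2 to 69.6) of those within 500 bp. The 948 shared WT As3+ sites had a median fold enrichment of 4.97 over 11 fragments, with a median of 5.48 over 10 fragments at the overlapping Nrf2 KO control intervals. The 846 WT As3+ sites without a partner had a median of 4.46 over 8 fragments and a median GC of 63.0%, against 68.0% for the shared ones. Their median width was 237 bp, against 341 bp for the shared ones. A wider interval meets an overlap of 1 bp more easily, and the part of width in sharing was not tested. Folds of different lists stand side by side here and were not compared, as each is relative to the background of its own library.

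**Figure D5:**
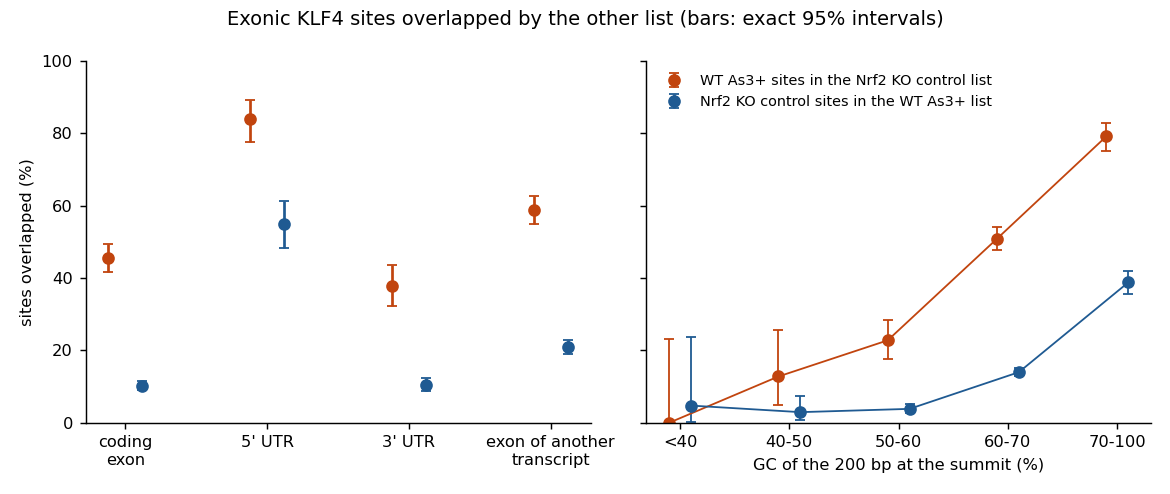
Share of exonic KLF4 sites (%) overlapped by an interval of the other long list, by exon class on the left and by GC content of the 200 bp at the summit on the right; bars are exact 95% binomial intervals. Sites in 5′ UTRs were shared most often, at 84.1% of WT As3+ and 54.9% of Nrf2 KO control sites, and above 70% GC 79.2% and 38.8% were shared.

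Few exonic sites were met by the short lists. A WT control interval overlapped 1.11% (0.682 to 1.72) of the WT As3+ sites, against 2.15% of all WT As3+ intervals, and 0.250% (0.140 to 0.412) of the Nrf2 KO control sites, against 0.514%. An interval of the Nrf2 KO As3+ list overlapped 0.167% (0.0345 to 0.488) of the WT As3+ sites, against 0.248%, and 0.0500% (0.0103 to 0.146) of the Nrf2 KO control sites, against 0.0810%. Read from the other side, 18 of the 22 exonic sites of the WT control list and 3 of the 4 of the Nrf2 KO As3+ list were overlapped by a WT As3+ interval. Nrf2 KO control intervals overlapped 15 and 3 of them. In the WT control list, 14 of the 22 sites were in exons of other transcripts, 3 in coding exons, 3 in 3′ UTRs and 2 in 5′ UTRs, and 7 of 22, or 31.8% (13.9 to 54.9), carried the KLF word, near the 26.3% (23.2 to 29.7) of the other intervals of that list.

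The same 3 loci carried the exonic sites found in all 4 lists. At CSRP1, which encodes a LIM domain protein of the cytoskeleton, fold enrichment was 7.67 over 49 fragments in WT control, 10.9 over 35 in WT As3+, 6.81 over 16 in Nrf2 KO control and 5.30 over 29 in Nrf2 KO As3+ cells. EHD1 encodes an ATPase of endocytic recycling, and had values of 8.05 over 39, 15.4 over 44, 8.01 over 17 and 6.01 over 30 in the same order. SGMS1 encodes a sphingomyelin synthase and had 5.93 over 25, 11 over 24, 14.4 over 26 and 7.42 over 28. All 3 lay in exons that the canonical transcript does not use. The EHD1 and SGMS1 summits were 102 and 125 bp from a transcript start in the WT As3+ list, and the CSRP1 summit was 3103 bp from one. Of the WT control exonic sites, SSUH2, SUSD1 and RAET1E had the summit in a coding exon, with folds of 6.14, 5.14 and 5.14.

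The strongest coding exon sites of WT As3+ cells, ranked by −log10 p, lay in TP53INP2, PSMG4 and EXOC3L4. TP53INP2 encodes a factor of autophagy and transcription, and its site in exon 4 (chr20:34708810-34709766) had 12.1-fold enrichment over 38 fragments, with 7.24-fold over 18 fragments at the same place in Nrf2 KO control cells. PSMG4, a gene for a chaperone of proteasome assembly, had 10.4-fold over 27 fragments in its first exon, 102 bp from a transcript start, and also 7.24-fold over 18 in Nrf2 KO control cells. EXOC3L4 had 10.7-fold over 25 fragments in its last exon, exon 12, and 8-fold over 14 in the other list. Neither short list had an interval at any of these 3 sites.

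The 5′ UTR sites were led by ANXA2, THSD1 and UBE2D2 in WT As3+ cells. ANXA2 encodes annexin A2, a calcium-dependent protein that binds phospholipids. Its interval of 2239 bp had 11.5-fold enrichment over 37 fragments, with 4.61-fold over 23 in WT control and 7.16-fold over 16 in Nrf2 KO control cells. The summit was 6 bp from the transcript start and 4925 bp from the start of the gene. At THSD1 the values were 10.7-fold over 25 fragments in WT As3+ and 4.00-fold over 8 in Nrf2 KO control cells. UBE2D2, which encodes a ubiquitin-conjugating enzyme, had 8.76-fold over 28 and 8.09-fold over 18. In all 3 genes the summit lay within 44 bp of a transcript start.

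Among 3′ UTRs, the strong sites of WT As3+ cells included DNAJB2 and PTPRN. DNAJB2 (chr2:219286268-219286792) had 11.9-fold enrichment over 43 fragments in WT As3+, 3.89-fold over 33 in WT control and 5.12-fold over 15 in Nrf2 KO control cells. PTPRN, a gene for a phosphatase-like receptor of secretory granules, is the neighbour of DNAJB2 on chromosome 2, and had 9.02-fold over 41 and, in Nrf2 KO control cells, 4.45-fold over 11. Both carried the KLF word shown above.

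In Nrf2 KO control cells the leading coding exon sites lay in AEBP2, a gene for a cofactor of Polycomb repressive complex 2, in SPATA20 and in NLRC5, which encodes an activator of MHC class I genes. AEBP2 had 10.7-fold enrichment over 17 fragments, with 3.94-fold over 9 in WT As3+ cells. SPATA20 had 9.63-fold over 18, with 7.09-fold over 17 in WT As3+ cells. NLRC5 had 8.37-fold over 22, with 9.14-fold over 31 in WT As3+ cells, and its summit in exon 31 was 2300 bp from any transcript start. The leading 5′ UTR sites were SALL2 and ZFHX3, both genes for zinc finger transcription factors, and PLA2G6, a phospholipase gene. They had 10.8-fold over 19, 10-fold over 18 and 8.31-fold over 21 fragments, and WT As3+ values of 4.72-fold over 11 at SALL2 and 4.62-fold over 10 at ZFHX3. No WT As3+ interval overlapped the PLA2G6 site. The leading 3′ UTR sites were RHPN1, with 10.7-fold over 18, OAZ1, which encodes an inhibitor of polyamine synthesis, with 9.53-fold over 14, and ATP6V1FNB, with 9.15-fold over 15. RHPN1 and ATP6V1FNB had 5.11-fold over 11 and 6.22-fold over 16 in WT As3+ cells, and OAZ1 had no interval there.

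Sites were spread over many genes. The 1794 WT As3+ sites lay in 1459 genes, 1194 of which had 1 site, and the 5997 Nrf2 KO control sites lay in 3700 genes, 2401 with 1 site. At least 5 sites were found in 1 WT As3+ gene and in 109 Nrf2 KO control genes. FLNA, the gene for the actin crosslinker filamin A, had the most in WT As3+ cells with 6, at 4.03- to 5.35-fold and 9 to 13 fragments, and had 5 in Nrf2 KO control cells. SLC16A3, a lactate transporter gene, EXOC3L4 and PLXNB2, a semaphorin receptor gene, followed with 4 each, and with 4, 4 and 6 in Nrf2 KO control cells. All 6 FLNA sites and all 4 of SLC16A3 lay within 2 kb of a transcript start.

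Nrf2 KO control sites were most numerous in HMCN2, a gene for a large extracellular matrix protein, with 14, against 2 in WT As3+ cells. COL20A1, a collagen gene, had 13 against 2, and APC2, a relative of the tumour suppressor APC, 11 against 1. Each site there was modest, with 3.35- to 7.30-fold enrichment and 4 to 11 fragments, and 2 sites of each gene reached a −log10 q of 5. The eligible exon of these genes was long, at 19.7 kb in HMCN2, 10.7 kb in COL20A1 and 11.2 kb in APC2, with a median GC of 63.5% to 69.5%. All 14 HMCN2 sites were more than 2 kb from any transcript start.

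COL20A1 is on chromosome 20, where the lists differed most. Nrf2 KO control cells had 341 exonic sites there and WT As3+ cells 66, a ratio of 5.17, against 3.34 over all chromosomes. All intervals of chromosome 20, exonic or not, had a ratio of 4.04 against 2.56. Chromosome 10 was next, with 4.69 for exonic sites and 3.96 for all intervals. The lowest ratio for exonic sites was 1.52 on chromosome 18, from 44 and 29 sites, and all its intervals had a ratio of 2.08.

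Genes with an exonic site were also looked up for an interval at their own start. Of all protein-coding genes with eligible exon, 52.4% had a WT As3+ summit within 2 kb of the gene start and 67.3% a Nrf2 KO control summit. Among genes with an exonic site the shares were 55.3% (52.7 to 57.9) in WT As3+ cells and 78.6% (77.3 to 79.9) in Nrf2 KO control cells, so that the WT As3+ share was near that of all genes. They were highest for genes with a site in the 3′ UTR, at 64.1% (58.0 to 69.8) and 85.7% (83.4 to 87.9), and lowest for those with a site in the 5′ UTR, at 39.5% (32.1 to 47.4) and 50.2% (43.7 to 56.7), below the shares of all genes.

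Gene families were taken by symbol, and the density of sites in their eligible exon was set beside the 20.2 (19.3 to 21.2) and 67.6 (65.9 to 69.3) sites per Mb over all protein-coding genes in WT As3+ and Nrf2 KO control cells. Collagen genes, which encode the fibres and sheets of the extracellular matrix, had 65 Nrf2 KO control sites in 23 of 44 genes, 169.8 (131 to 216) per Mb. From their GC content 39.7 were expected, so that the ratio was 1.64 (1.26 to 2.09). COL20A1 gave 13 of these sites, COL11A2 8 and COL16A1 5. In WT As3+ cells collagen genes had 10 sites against 11.4 expected. C2H2 zinc finger genes, the largest family of transcription factors, were below the density of all genes in both lists, with 8.98 (5.92 to 13.1) and 35.9 (29.5 to 43.4) sites per Mb, and below the number expected from GC, with ratios of 0.618 (0.407 to 0.900) and 0.797 (0.654 to 0.962). Solute carrier genes, which encode membrane transporters, had 46 WT As3+ sites against 39.0 expected and 167 Nrf2 KO control sites against 135 expected, ratios of 1.18 (0.864 to 1.57) and 1.24 (1.06 to 1.44). Laminin and integrin genes, for cell adhesion, had 7 sites against 7.77 expected and 35 against 27.6.

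The other families gave small numbers. Olfactory receptor genes had 1 and 4 sites in 0.6586 Mb of eligible exon, at a median GC of 39.5%. ADAMTS genes, for proteases of the extracellular matrix, had 1 WT As3+ site against 5.65 expected and 16 Nrf2 KO control sites against 18.1. Keratin genes had 5 sites in each list, against 2.62 and 10.4 expected, and KRT8 had 2 of those in WT As3+ cells. Mucin genes had 3 and 17, against 6.96 and 25.3. HOX genes had 3 and 9, against 1.56 and 4.88, and SOX and FOX genes 5 and 17, against 6.37 and 19.7. Clustered protocadherin genes had 0 and 6 sites, against 2.97 and 9.12. Genes of the KLF and SP families, which encode KLF4 and its relatives, had 3 and 7 sites, against 2.40 and 7.62, and among them were KLF6 in WT As3+ cells and KLF13, with 3 sites, in Nrf2 KO control cells. Apart from the ADAMTS genes in WT As3+ cells, where it ends at 0.985, the interval of the ratio to the expected number includes 1 for all families of this paragraph.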

How the data were processed

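KLF4 ChIP-seq was carried out with an anti-KLF4 antibody in BEAS-2B cells, and 4 lists of intervals, 1 per condition, were used. Reads were mapped by the authors to hg38 with BWA. The submitters' processing notes name bcl2fastq 2.17. The program that called the intervals is not given in the sources used here. The deposited fold is a ratio of the signal at the summit to the local background, and the deposited −log10 p and −log10 q belong to the summit. The deposited score is −log10 q times 10, rounded down, and was not used further. Repeated rows and other chromosomes were left out. Histone mark and input libraries of the series were not used here.

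Fragments (n) and background (λ) were solved from fold = (n + 1)/(λ + 1) and p as an upper Poisson tail, with a largest misfit of 0.000405. This is the depth behind a site. Library totals were not used. Genes, canonical transcripts and exons came from GENCODE 44. A site lay in an exon of a protein-coding gene, with its summit more than 2000 bp from the 5′ end of every annotated gene. Coding came before 5′ UTR and 3′ UTR where genes overlap. Eligible sequence was sampled every 50 bp in exons and every 500 bp in introns, with 200 bp windows. The solving of fragments, the exon classes, a density ratio, the word search and the overlaps were tested on simulated data. Other steps had no such test. The members and lists were chosen with earlier results of these data known. Named sites are the 3 with the largest −log10 p per list and class, those in all 4 lists, and the 4 genes with the most sites per list. A few items that meet this rule are left out of the text. The gene family examples and the coding exon sites of the WT control list were picked once their values were known. The expected numbers by GC, the bands of GC and the comparison of chromosomes were also added after seeing the data. Groups came from the labels. Alternatives for the distance, exon set, threshold, list length, overlap, window and word are given in the closing section. Computations used scipy 1.17.1, numpy 2.4.6 and pandas 2.3.3 in Python 3.11.15, matplotlib 3.10.9 for figures, and samtools 1.23.1 for the genome.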

Additional observations from a re-analysis of the deposited data

How the results depend on the processing

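Of 143 alternative values, 59 stayed within the interval of the reported value, or within 1.5 times a count, 76 moved beyond it and 8 turned a ratio to the other side of 1. Pairs give WT As3+ first and Nrf2 KO control second. With every transcript start more than 2000 bp away, sites fell to 633 and 2783, coding exon shares were 47.2% and 50.3%, 5′ UTR shares 0.316% and 0.395%, 3′ UTR shares 37.8% and 35.1%, first exon shares 0.741% and 0.461%, last exon shares 57.8% and 58.1%, the Nrf2 KO control inner share 40.9%, and the coding exon to 3′ UTR density ratio 1.91 and 2.19. At −log10 q of at least 5, sites numbered 469 and 1106, with coding exon shares of 28.6% and 40.5%, 5′ UTR 14.1% and 9.95%, 3′ UTR 10.4% and 16.4%, first exon 38.6% and 19.6%, inner 31.3% and 43.4%, last 30.1% and 36.7%, median GC 68.5% and 66.5%, KLF word 11.5% and 7.87%, density ratio 2.94 and 2.66, and ratio between 60% and 70% GC 0.641 and 0.748. Among the 10000 strongest intervals of each list there were 492 and 612 sites, with coding exon shares of 28.5% and 40%, 5′ UTR 14.0% and 13.1%, 3′ UTR 10.4% and 13.1%, first exon 39.2% and 25.7%, inner 31.2% and 44%, last 29.6% and 29.9%, median GC 68.5% and 67.5%, KLF word 11.4% and 7.84%, density ratio 2.95 and 3.30, and a WT As3+ ratio between 60% and 70% GC of 0.641.

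Canonical exons alone held 1129 WT As3+ sites. With 1 site per gene the Nrf2 KO control shares were 5.41% for 5′ UTR, 10.5% for first and 46.8% for inner exons, and at more than 5000 bp from gene starts the inner share was 52.1%. GC over 500 bp had medians of 64.0% and 62.2%. Overlap shares were 45.3% and 12.6% where 50% of the shorter interval had to be covered, 19.3% and 5.69% for summits within 100 bp, and 46.5% and 19.5% at −log10 q of at least 5 in both lists. The KLF word was found at 4.07% and 3.44% of sites in a window of 100 bp, and CCNCNCCC at 57.5% and 50.4%, against 16.2% of eligible windows, where between 60% and 70% GC the shares were 55.5% and 51.1% against 45.2% and above 70% GC 75% and 68.3% against 65.6%. Within bands of GC, chosen after seeing the data, the density ratio turned to 0.476 below 40%, 0.334 from 40% to 50%, 0.508 from 50% to 60% and 0.820 from 60% to 70% in WT As3+ cells, and was 1.04 above 70%. In Nrf2 KO control cells it turned to 0.293, 0.777, 0.913 and 0.867 in the bands from 40% upward, and below 40% no coding exon site was found. The coding exon to 3′ UTR ratio between 60% and 70% GC stayed below 1 under all 5 alternatives run for it, and the other ratios at equal GC were not recomputed. The number of fragments, with medians of 10 and 7 per site, limits what a missing overlap can show. No paired analysis was possible because each condition has 1 library.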
